A study of Mus musculus with 6 samples.

Results

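The perineuronal net and brain matrix genes examined here were 8 genes picked by symbol from the count table, 4 lecticans (Acan, Bcan, Ncan and Vcan), 2 link proteins (Hapln1 and Hapln4) and 2 tenascins (Tnr and Tnc). They were 8 of the 53746 genes in the table, and all 8 were among the 16961 genes that passed the filter on low counts. RNA came from whole cerebella of 3 N153SLSL/LSLPcp2-cre mice (called Pcp2-cre here) and 3 N153SLSL/LSL control mice at 2 months of age, with 2 males and 1 female in each group. Both groups carried, on both Sting1 alleles, the N153S knockin behind a LoxP-Stop-LoxP cassette. The Pcp2-cre transgene, which drives Cre in Purkinje cells, was present in the first group only, so a difference could not be assigned to the mutant protein apart from Cre itself.

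The extracellular matrix of the adult brain is built on hyaluronan, a long sugar chain to which lecticans bind. Lecticans are chondroitin sulfate proteoglycans, link proteins fix them to hyaluronan, and tenascins join lecticans to each other. In a perineuronal net this matrix condenses around the soma and proximal dendrites of a neuron. In the cerebellum such nets surround the large neurons of the cerebellar nuclei, on which Purkinje cell axons end, and Golgi cells in the granular layer.

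Total counts lay between 6733178 and 10178218 per library. Sting1, the engineered gene, had 25.5 ± 2.09 CPM in controls (counts scaled to library size, SD, n = 3 mice) and 38.0 ± 5.55 CPM (SD, n = 3 mice) in Pcp2-cre cerebella, without overlap. The counts do not tell Sting1 transcripts with the mutation from any without it. In public single-cell data the paper saw Sting1 mRNA only in microglia, with little or none in neurons. The 9 microglia genes examined below summed to 122 to 128 CPM in control and 335 to 375 CPM in Pcp2-cre mice. Which cells the Sting1 difference came from was not tested. Control mice 1 and 2 stood apart in genes of the choroid plexus, a tissue next to the cerebellum. The 9 genes of that list summed to 813 and 1262 CPM in these 2 libraries, against 34.2 CPM in control mouse 3 and 24.2 to 90.7 CPM in the Pcp2-cre mice. The results for the 8 genes and the other matrix genes were therefore also computed without these 2 libraries.

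The tenascin genes are shown first by sequence, because they encode related proteins and their transcripts differed in opposite directions between the genotypes. The 250 bases before a transcription start of each were taken from RefSeq promoters of build GRCm38.p6, the only sequences printed here with that build. Promoters of 7 of the 8 genes matched, and Hapln4 was not among them. The Tnr window lies at chr1:159523519-159523768 on the plus strand. The more downstream of the 2 listed starts of Tnc gave chr4:64046937-64047186 on the minus strand. Capitals mark matches on either strand to 3 short motifs, TATAA (the core of a TATA box), the GC box GGGCGG bound by Sp1, and the AP-1 element TGANTCA, none of which overlapped another in these windows.
Tnr: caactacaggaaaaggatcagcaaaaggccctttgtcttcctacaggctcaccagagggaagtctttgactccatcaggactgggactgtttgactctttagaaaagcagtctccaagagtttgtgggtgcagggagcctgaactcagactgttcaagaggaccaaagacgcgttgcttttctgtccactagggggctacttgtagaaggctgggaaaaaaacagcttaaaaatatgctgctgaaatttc
Tnc: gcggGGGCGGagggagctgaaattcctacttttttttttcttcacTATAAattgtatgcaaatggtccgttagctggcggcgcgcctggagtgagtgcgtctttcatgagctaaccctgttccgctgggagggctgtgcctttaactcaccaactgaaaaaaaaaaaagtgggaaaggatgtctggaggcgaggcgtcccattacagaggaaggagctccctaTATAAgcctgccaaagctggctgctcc
The Tnc window held TATAA at -205 to -201 and at -27 to -23 from the start and GGGCGG at -246 to -241. The Tnr window held none of the 3 motifs. Of the other matched genes, Acan, Bcan, Ncan and Vcan held GGGCGG, Ncan also held TATAA, and Hapln1 held none. Whether these motifs go with the direction of a difference was not tested. Among all 32851 promoter windows of the same length, 22.8% held TATAA, 32.7% held GGGCGG and 6.75% held TGANTCA. CpG dinucleotides numbered 10 in the Tnc and 2 in the Tnr window, against a median of 6.0 over all windows.

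**Figure D1:**
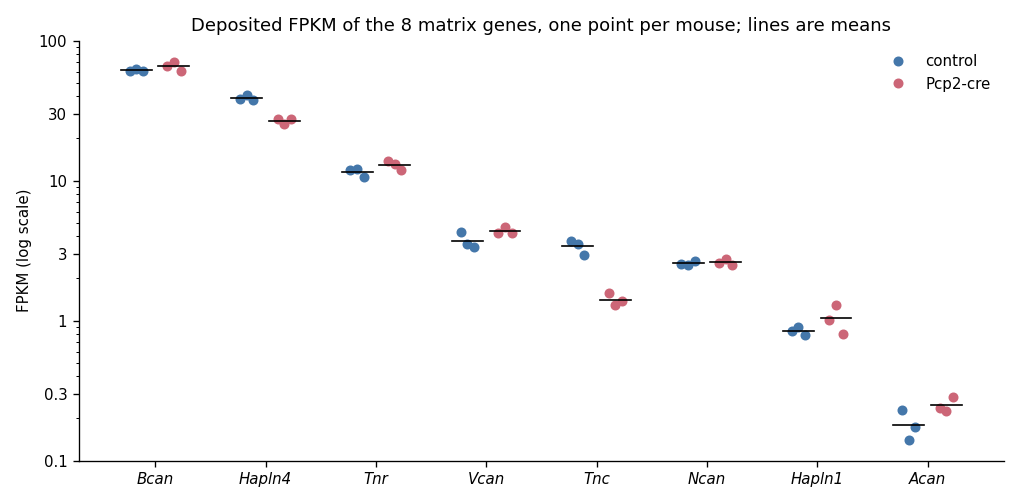
Deposited FPKM (log scale) of each gene in each mouse, control in blue and Pcp2-cre in red, with lines at the means. The order of the genes runs from Bcan, with a control mean of 61.2 FPKM, to Acan, with 0.181 FPKM.

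Levels were compared between genes on the FPKM scale, which corrects for transcript length. In control cerebella Bcan, which encodes brevican, the most abundant lectican of the adult brain, was highest with 61.2 ± 1.34 FPKM (SD, n = 3 mice). Hapln4, the link protein known to localize with brevican in the nets of the cerebellar nuclei, followed with 39.0 ± 1.58 FPKM. Tnr, the tenascin of mature nets, had 11.5 ± 0.794 FPKM. Vcan (versican, made in part by oligodendrocyte precursors) had 3.71 ± 0.50 FPKM and Tnc (tenascin-C, a glial matrix protein) 3.39 ± 0.402 FPKM. Vcan and Tnc were neighbours in this order whose control mice overlapped, from 3.34 to 4.28 FPKM and from 2.93 to 3.69 FPKM. Ncan, which encodes neurocan, had 2.57 ± 0.0952 FPKM, Hapln1 0.847 ± 0.0595 FPKM and Acan, which encodes aggrecan, 0.181 ± 0.0441 FPKM. Among the controls the other neighbours in the order did not overlap.

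In Pcp2-cre cerebella the order was the same except that Tnc, with 1.41 ± 0.142 FPKM (SD, n = 3 mice), lay below Ncan, with 2.61 ± 0.140 FPKM. Tnc there overlapped with Hapln1, whose mice ranged from 0.801 to 1.30 FPKM. The 8 genes summed to 118 to 126 FPKM in control and 109 to 119 FPKM in Pcp2-cre mice, so the sums overlapped. Of that sum Bcan made up 50.0 ± 0.699% in control and 57.0 ± 1.88% in Pcp2-cre mice (SD, n = 3 each). The share of Hapln4 was 31.9 ± 0.503% in control and 23.3 ± 1.95% in Pcp2-cre mice. Tnr went from 9.41 ± 0.405% to 11.3 ± 0.515% and Tnc from 2.76 ± 0.269% to 1.23 ± 0.134%. These shares are a description and were not tested.

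The annotation of GRCm39 (Gencode M39) places each lectican gene beside a link protein gene, with no other protein-coding gene between them. Hapln1 (chromosome 13, 89686581 to 89759950, plus strand) lies 43480 bp from Vcan (89803431 to 89890814, minus strand). Bcan (chromosome 3, 87894835 to 87910177, minus strand) lies 16622 bp from Hapln2, and Acan (chromosome 7, 78702964 to 78764847, plus strand) lies 2 bp from Hapln3. Hapln4 (chromosome 8, 70536106 to 70543533, plus strand) and Ncan (70538926 to 70573523, minus strand) overlap by 4608 bp, of which 1255 bp is exon in both. The shared exon sequence with any gene came to 31.3% of the merged exon length of Hapln4 and 13.98% of that of Ncan. Whether strand was used in counting is not given in the sources used here, so reads from this stretch cannot be assigned with certainty to either gene. The tenascin genes share less exon sequence with antisense non-coding genes, 5.49% of Tnr (chromosome 1, 159351339 to 159759299, plus strand) and 3.80% of Tnc (chromosome 4, 63878014 to 63965443, minus strand).

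**Figure D2:**
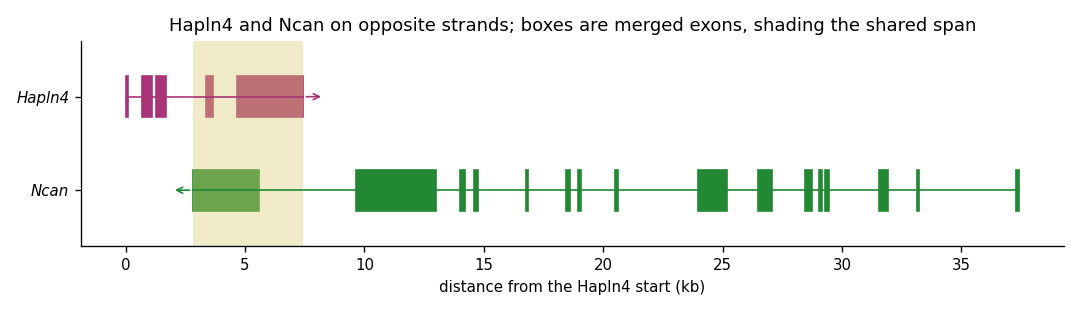
Map of Hapln4 (plus strand) and Ncan (minus strand), with distance from the Hapln4 start in kb. Boxes are exons merged over all annotated transcripts, arrows give the direction of transcription, and the shading covers the 4608 bp in which the genes overlap.

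Between the genotypes, 2 of the 8 genes were called lower in Pcp2-cre cerebella, Tnc and Hapln4, and 0 were called higher. Genes were called by the quasi-likelihood test of edgeR, with p-values adjusted over all genes tested (Benjamini-Hochberg), where the adjusted p did not exceed 0.05 and the log2 fold change reached 0.5 in size. By the same rule 3.17% of all genes tested were called, 1.79% lower and 1.37% higher. At an unadjusted p under 0.05, 3 of the genes were higher, and DESeq2 called 0 higher and 2 lower. By adjusted p alone, whatever the fold change, 2 genes (Tnc and Hapln4) were lower and 2 (Tnr and Vcan) higher, against 4.75% of all genes tested lower, 2.99% higher and 7.74% in either direction. The median log2 fold change over the 8 genes was 0.14, against 0.00454 over all genes tested. In 7 of the 8 genes the CPM of the genotypes did not overlap, 5 higher and 2 lower in Pcp2-cre mice, which 22.2% of all genes tested showed (10.8% higher, 11.4% lower). In the deposited FPKM only the 2 lower genes, Tnc and Hapln4, were without overlap, and the 5 higher genes overlapped between the genotypes. In bulk tissue, fewer cells of a type and less RNA per cell cannot be told apart.

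**Figure D3:**
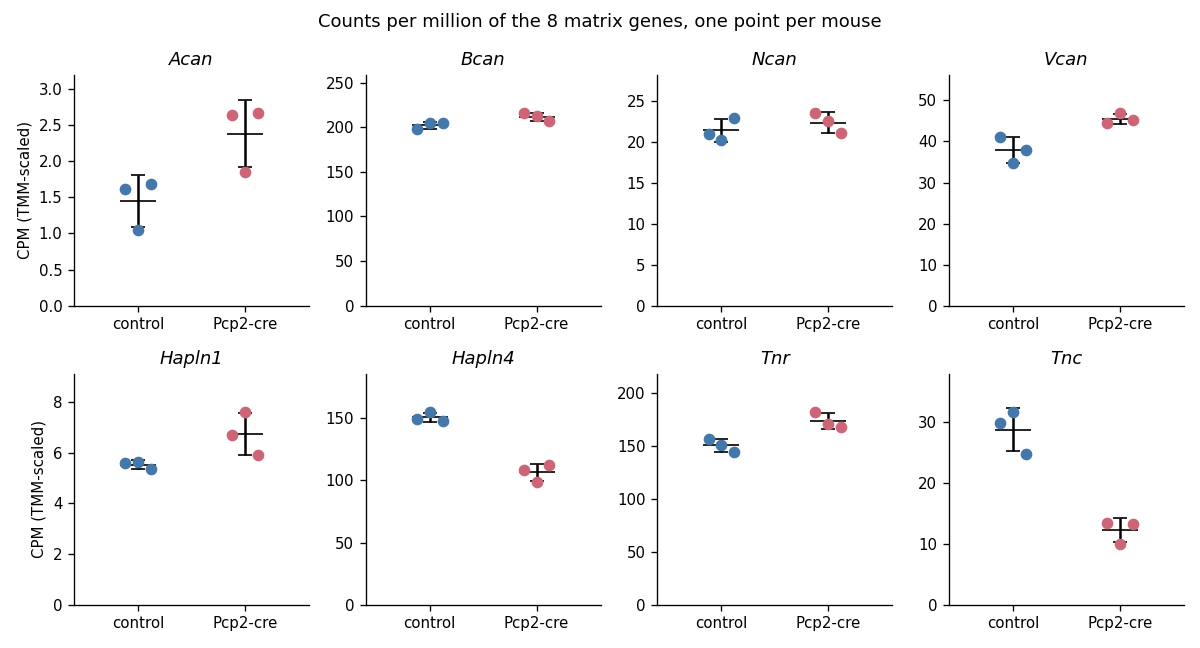
CPM of each gene in each mouse (points), with the mean and SD of the 3 mice of a genotype (bars), on axes that start at 0. The Pcp2-cre points for Tnc and Hapln4 all lie below the control points, and only Ncan overlaps between the genotypes.

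Tnc (ENSMUSG00000028364) had 29.9, 31.7 and 24.9 CPM in control mice 1, 2 and 3 and 13.4, 10.04 and 13.3 CPM in Pcp2-cre mice 1, 2 and 3. No Pcp2-cre mouse reached the lowest control. The level in Pcp2-cre mice was 0.426 times that in controls, a log2 fold change of -1.23 (standard error 0.120, 95% interval -1.48 to -0.98, edgeR adjusted p = 2.63e-07). The lowest control was mouse 3, the control library with little choroid plexus RNA. Without control mice 1 and 2, which left 1 control, the log2 fold change of Tnc was -1.03. It was -1.04 when the fit held a choroid plexus score.

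In the adult cerebellum tenascin-C is known from Bergmann glia, the radial astrocytes whose processes run along Purkinje cell dendrites. The 12 genes of the Bergmann glia and astrocyte list moved in both directions, with 2 called higher, 0 called lower and a median log2 fold change of 0.10. By adjusted p alone 4 were higher and 3 lower. At an unadjusted p under 0.05 in edgeR, 7 were higher and 3 lower, and DESeq2 called 2 higher and 0 lower. Gfap, an intermediate filament gene, and Aqp4, a water channel gene, had log2 fold changes of 1.94 and 0.51. The 3 lower genes were Aldoc (-0.35), an aldolase gene, and 2 Bergmann glia genes named after their values were seen, Slc1a3 (-0.22), a glutamate transporter, and Gdf10 (-0.25), a growth factor. None of these 3 overlapped between the genotypes. Aldoc is not a gene of glia alone, since the paper proposes Aldolase C staining to tell types of Purkinje cells apart. The summed level of the list was 4162 to 4236 CPM in control and 4378 to 4432 CPM in Pcp2-cre mice. The part of these glial genes' cells in the Tnc result was not tested.

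Hapln4 (ENSMUSG00000007594) had 149.9, 155 and 148 CPM in control mice 1, 2 and 3 and 108, 98.8 and 113 CPM in Pcp2-cre mice 1, 2 and 3. Again the genotypes did not overlap. It fell by 29.6%, a log2 fold change of -0.51 (standard error 0.0462, 95% interval -0.60 to -0.41, edgeR adjusted p = 1.01e-07), the smallest p of the 8 genes. The interval spans the fold threshold of 0.5, so the call, though not its direction, depended on small shifts. Without control mouse 2 the log2 fold change was -0.49, without Pcp2-cre mouse 2 -0.45, and without control mice 1 and 2 together -0.48. The adjusted p stayed at or below 0.00771 under all 18 alternatives.

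HAPLN4 is known to be made by Purkinje cells and by neurons of the cerebellar nuclei. All 10 genes of the Purkinje cell list were lower by adjusted p, and 7 were called, with a median log2 fold change of -0.77. Itpr1 and Car8, which act in calcium release and in regulation of the ITPR1 channel, had log2 fold changes of -0.98 and -0.96. The summed level of the list was 7946 to 8691 CPM in control and 4572 to 5021 CPM in Pcp2-cre mice. The list of the cerebellar nuclear neurons, for which no marker is exclusive, had 1 gene called higher and 0 lower of 7, with 4 higher and 3 lower at an unadjusted p under 0.05 in edgeR, and DESeq2 called 1 higher and 0 lower. That gene was Spp1 (1.31), which activated microglia also make, and Nefh, a neurofilament gene, had a log2 fold change of -0.35. The part of the lower Purkinje cell list in the Hapln4 result was not tested.

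The genes whose levels were most like those of Hapln4 across the 6 libraries, by root mean square distance in log2 CPM centred on the control mean, were Atp2b2, Insyn1 and Tmem41a. Their distances were 0.0362, 0.0391 and 0.0445, and their log2 fold changes were -0.48, -0.49 and -0.51. With centring on the control mean the distance includes the genotype difference, so similar fold changes follow from how these genes were picked.

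No other link protein gene was called. Hapln1 had 5.61, 5.66 and 5.35 CPM in the controls and 6.72, 7.62 and 5.92 CPM in the Pcp2-cre mice. All Pcp2-cre mice were above the controls, but by little in mouse 3, and the log2 fold change of 0.30 had a 95% interval of -0.06 to 0.65 (adjusted p = 0.391 from edgeR). Hapln2, which encodes a link protein of the nodes of Ranvier, had 32.2 ± 2.12 and 35.4 ± 1.68 CPM (SD, n = 3 mice each), with an interval of -0.03 to 0.29. Hapln3 had 2 to 8 counts per library and did not pass the filter.

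Tnr (ENSMUSG00000015829) had 157, 151 and 144 CPM in control mice 1, 2 and 3 and 182, 171 and 168 CPM in Pcp2-cre mice 1, 2 and 3. The Pcp2-cre mice were all above the controls. The level rose by 15.6%, or 0.21 on the log2 scale (standard error 0.0452, edgeR adjusted p = 0.00393), under the fold threshold. Without Pcp2-cre mouse 1 the adjusted p was 0.0598 (edgeR), and in limma on log2(FPKM + 1) it was 0.387, where the genotypes overlapped in FPKM. Tenascin-R is known from oligodendrocytes, and all 7 oligodendrocyte genes lay above 0 in log2 fold change, with 5 past the adjusted p, 0 called by edgeR or DESeq2 and 7 higher at an unadjusted p under 0.05 in edgeR. Mbp and Cldn11, both myelin genes, had log2 fold changes of 0.25 and 0.24. The summed level of that list was 3638 to 3867 CPM in control and 4267 to 4478 CPM in Pcp2-cre mice, and its part in the Tnr result was not tested.

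**Figure D4:**
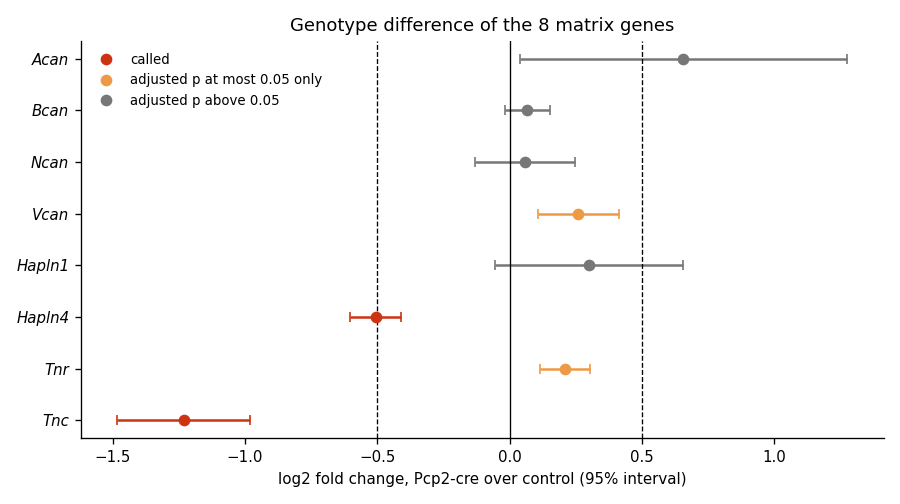
Log2 fold change of each gene, Pcp2-cre over control, with its 95% interval from the edgeR fit and dashed lines at 0.5 and -0.5. Tnc and Hapln4 were called (red), and Tnr and Vcan passed by adjusted p alone (orange). The intervals of Bcan, Ncan, Tnr and Vcan lie within the dashed lines.

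No lectican, the proteins that carry the chondroitin sulfate chains, was called in either direction. Vcan (ENSMUSG00000021614) had 41.2, 34.8 and 37.8 CPM in the controls and 44.4, 46.9 and 45.3 CPM in the Pcp2-cre mice. The groups did not overlap in CPM but did in FPKM, and the rise was 0.26 on the log2 scale (standard error 0.0729, edgeR adjusted p = 0.0302). The log2 fold change was 0.21 to 0.32 with each mouse left out and 0.27 without control mice 1 and 2, while the adjusted p crossed the threshold. It stayed at or below 0.05 under 8 of 18 alternatives, among the fits without 1 mouse only when control mouse 1 was left out, and reached 0.182 without Pcp2-cre mouse 2. With all 6 libraries the adjusted p was 0.246 in DESeq2, 0.393 in limma on log2(FPKM + 1) and 0.402 in limma on log2(FPKM + 0.1).

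Versican and brevican are known products of oligodendrocyte precursors. In that list 1 of 7 genes, Gpr17, was called higher (log2 fold change 0.61), and Sox10 and Olig1 had 0.34 and 0.24, while Pdgfra, a defining precursor gene, had -0.02. The summed level of the list was 140.1 to 156 CPM in control and 175 to 188 CPM in Pcp2-cre mice, and its part in the Vcan result was not tested.

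Bcan had 198, 205 and 204 CPM in the controls and 216, 212 and 207 CPM in the Pcp2-cre mice. The Pcp2-cre mice lay just above the controls, with a log2 fold change of 0.07 and a 95% interval of -0.02 to 0.15 (adjusted p = 0.441 from edgeR). Ncan had 21.0, 20.3 and 22.9 CPM in the controls and 23.4, 22.5 and 21.0 CPM in the Pcp2-cre mice, with overlap. Its log2 fold change of 0.06 had an interval of -0.13 to 0.25 (adjusted p = 0.823 from edgeR). For both genes the interval lay within the fold threshold on either side. Ncan was not called, and no count was made without the exon sequence that it shares with Hapln4.

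Acan had the lowest counts of the 8 genes, with 13, 7 and 17 counts in the controls and counts of 20, 16 and 18 in Pcp2-cre mice. These came to 1.62, 1.04 and 1.68 CPM and to 2.63, 1.85 and 2.66 CPM, where 3 counts, used here as the floor of detection for counting error, were 0.295 to 0.446 CPM. The difference of 0.66 on the log2 scale did not pass the test (standard error 0.297, edgeR adjusted p = 0.238), and its 95% interval of 0.04 to 1.28 was the widest of the 8. All Pcp2-cre mice lay above the controls in CPM (unadjusted p = 0.0386 in edgeR), while in FPKM the genotypes overlapped.

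Ratios of counts within a library do not depend on how libraries are scaled, and 3 were computed, chosen after the values had been seen. Counts of Tnc per count of Tnr were 0.191, 0.210 and 0.173 in the controls and 0.0738, 0.0587 and 0.0792 in the Pcp2-cre mice. The log2 ratio differed by -1.45 between the genotype means. Counts of Hapln4 per count of Bcan were 0.758, 0.758 and 0.725 in the controls and 0.502, 0.465 and 0.544 in the Pcp2-cre mice, a log2 difference of -0.57. Per count of Hapln1, Hapln4 had 26.7, 27.4 and 27.7 counts in the controls and 16.1, 13.0 and 19.0 in Pcp2-cre mice, a log2 difference of -0.78. The genotypes did not overlap in any of the 3 ratios. In each ratio the first gene lay lower and the second higher in CPM, both without overlap, so the ratios had to separate. A two-sided exact permutation test gave p = 0.1 for each (0.1 after adjustment over the 3), the smallest p that 3 mice against 3 allow. This outcome was fixed by the choice of genes and adds no support to the results of the single genes.

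**Figure D5:**
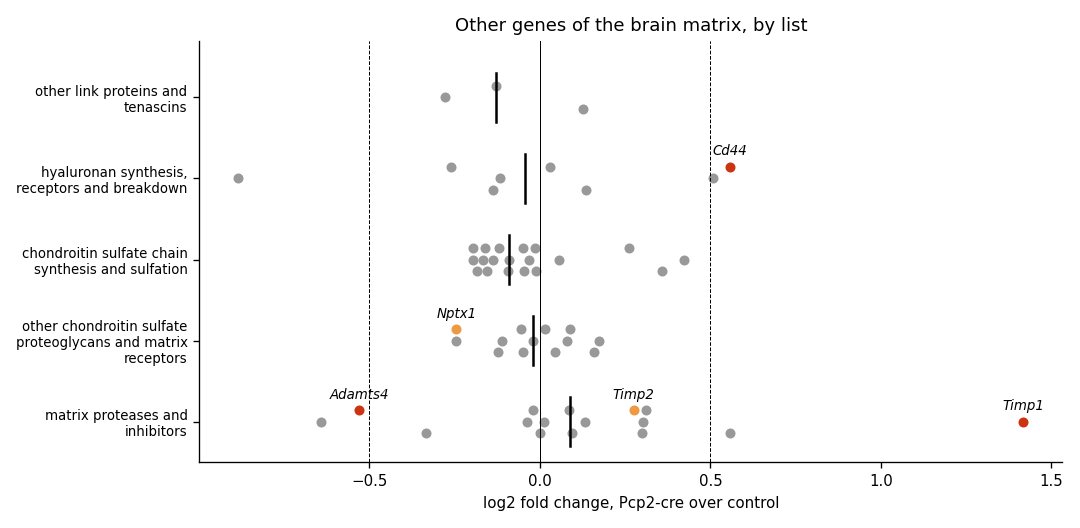
Log2 fold change, Pcp2-cre over control, of the 59 tested genes in 5 lists of other matrix genes, with black lines at the list medians and dashed lines at 0.5 and -0.5. Cd44, Timp1 and Adamts4 were called (red), and Nptx1 and Timp2 passed by adjusted p alone (orange).

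Other genes of the matrix were examined as 5 lists with 68 genes, of which 59 were tested, 2 called higher and 1 lower (5.08%, against 3.17% of all genes tested). Their median log2 fold change was -0.02. In the list of hyaluronan synthesis, receptors and breakdown 1 of 8 tested genes was called higher and 0 lower, with 1 lower at an unadjusted p under 0.05. The gene called was Cd44, a hyaluronan receptor of reactive astrocytes and leukocytes. Cd44 had 9.73, 9.98 and 9.91 CPM in the controls and 13.96, 14.4 and 15.2 CPM in the Pcp2-cre mice, without overlap. The change was 0.56 on the log2 scale (standard error 0.116, edgeR adjusted p = 0.00285), and DESeq2 gave an adjusted p of 0.0715.

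Of 16 tested matrix proteases and inhibitors, Timp1 was called higher and Adamts4 lower. At an unadjusted p under 0.05 in edgeR 5 were higher and 2 lower, and DESeq2 called 0 higher and 1 lower. Adamts4, a protease that cuts aggrecan and brevican, had 65.6, 59.0 and 57.8 CPM in the controls and 43.3, 37.9 and 45.6 CPM in the Pcp2-cre mice. All Pcp2-cre mice lay below all controls. The change was -0.53 on the log2 scale (standard error 0.0741, edgeR adjusted p = 3.79e-05), and the call was lost under 6 of 18 alternatives, without control mouse 1 (-0.47) and without Pcp2-cre mouse 2 (-0.45) among them. Timp1, a metalloprotease inhibitor, had 10, 3 and 9 counts in the controls and counts of 18, 21 and 16 in Pcp2-cre mice. The change was 1.42 on the log2 scale (standard error 0.335, edgeR adjusted p = 0.00857), and the call was lost under 4 of 17 alternatives, with an adjusted p of 0.149 in DESeq2 and 0.0590 in edgeR without Pcp2-cre mouse 2. Timp2, named after its values were seen, had a log2 fold change of 0.28 (adjusted p = 0.00527 from edgeR), under the fold threshold.

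The enzymes that build and sulfate chondroitin chains gave 0 calls in either direction among 19 tested genes. At an unadjusted p under 0.05 in edgeR 2 were lower and 0 higher, and DESeq2 called 0. The list's median was -0.09, and the smallest p belonged to Ust, a uronyl sulfotransferase gene (log2 fold change -0.14, adjusted p = 0.132 from edgeR). Of 13 tested genes for other chondroitin sulfate proteoglycans and matrix receptors 0 were called by edgeR or DESeq2, with 2 higher and 3 lower at an unadjusted p under 0.05 in edgeR. Nptx1, a neuronal pentraxin gene, had 764, 771 and 763 CPM in the controls and 647, 623 and 669 CPM in the Pcp2-cre mice, a log2 fold change of -0.24 (adjusted p = 8.19e-05 from edgeR) under the fold threshold. Of the other link proteins and tenascins 3 of 4 genes were tested and 0 called, with 0 at an unadjusted p under 0.05 in edgeR and 0 calls in DESeq2. The smallest p there was that of Tnxb, with a log2 fold change of -0.28 (adjusted p = 0.315 from edgeR).

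Other cell type lists are given for context. The microglia list, 7 of whose 9 genes were called higher, summed to 122 to 128 CPM in control and 335 to 375 CPM in Pcp2-cre mice, with C1qa and C1qb at log2 fold changes of 2.10 and 1.99. Of 6 tested Golgi and molecular layer interneuron genes 0 were called by edgeR or DESeq2 and 0 had an unadjusted p under 0.05 in edgeR, and Sorcs3, Slc6a5 and Lgi2 had -0.12, 0.12 and 0.06. The interneuron list summed to 493 to 509 CPM in control and 479.5 to 524 CPM in Pcp2-cre mice. Granule cell genes (0 of 8 called by edgeR or DESeq2, with 2 higher at an unadjusted p under 0.05 in edgeR) had a median log2 fold change of 0.05, with Neurod1, Slc17a7 and Gabra6 at 0.17, 0.08 and 0.06. Meningeal and vascular genes (0 of 9 called by edgeR or DESeq2, with 1 higher at an unadjusted p under 0.05 in edgeR) had a median of 0.12, with Cldn5, Igf2 and Col1a2 at 0.22, 0.47 and 0.15. Of 6 tested choroid plexus genes 5 were called lower, and Clic6, Ttr and Kl had log2 fold changes of -3.86, -4.61 and -3.67 against controls of which mice 1 and 2 held most of that RNA. DESeq2 called 2 of them. The part of these cell types in the matrix gene results was not tested.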

How the data were processed

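RNA of 6 cerebella was sequenced as poly A-enriched paired reads. Per the study's methods, trimmed reads were aligned by STAR (GRCm39), and featureCounts and StringTie quantified Gencode genes. Tool versions, Gencode release, use of strand and treatment of multi-mapping reads are not given in the sources used here. A table the authors deposited holds raw counts (53746 genes) and another FPKM (55005 genes), values scaled to exon length and library size, with 1 column per mouse and no comparison columns.

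The main test was the quasi-likelihood test of edgeR 4.0.16 (R 4.3.3) on counts, after filterByExpr and TMM scaling, over 16961 genes with Benjamini-Hochberg adjustment. CPM use TMM-scaled library sizes, and 95% intervals come from the same fit. In simulated counts of this comparison, over 16961 genes, 176 of 195 genes with a log2 change of 1 in size were called, and 12 of 16543 unchanged genes. No libraries of a group were alike within sampling noise (chi-square per gene 1.37 to 3.18). Genotypes came from the labels.

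Alternatives were DESeq2 1.42.0, the likelihood ratio test, other scaling and filters, a replicate block, sex, limma 3.58.1 on log2(FPKM + 1) or log2(FPKM + 0.1), and each mouse left out. Choroid plexus alternatives were chosen after seeing the data. The genes and lists were chosen with earlier results of these data known. Named genes were the 8 genes, all called genes and the smallest p of each matrix list, Hapln2 and Hapln3, the 3 smallest p of each marker list (Pdgfra was named beside them after its value was seen, and some are not reported here), and the 3 genes nearest to the member with the smallest p. Exon overlaps came from Gencode M39. FPKM levels carry no depth, which is known here from the counts.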

Additional observations from a re-analysis of the deposited data

How the results depend on the processing

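Tnc was called lower under all 18 alternatives, with log2 fold changes from -1.34 to -0.86. Hapln4 stayed lower with an adjusted p of at most 0.05 under the same 18, but 5 took its log2 fold change under 0.5 in size. It was -0.48 with total counts and no TMM, -0.48 without control mice 1 and 2 together, -0.47 with a choroid plexus score, and -0.55 to -0.45 with each mouse left out. The number of the 8 genes called lower was then 1 with total counts, 1 without control mice 1 and 2, 1 with the score and 1 to 2 with each mouse left out. At any fold change 2 were higher. Ncan, which was not called, changed sign to -0.035 without control mice 1 and 2 and to -0.042 with the score. The cause of these shifts was not tested.

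Of the 5 matrix lists, 2 genes were called higher and 1 lower. The number called higher was 0 with DESeq2, 1 with at least 10 counts in every library (Timp1 was not tested there), 1 with limma on log2(FPKM + 1), 1 on log2(FPKM + 0.1), 1 without control mice 1 and 2, 1 with the score, 1 to 2 with each mouse left out, 3 with no filter on low counts and 3 at any fold change. The number called lower was 0 in both limma fits, 0 without control mice 1 and 2, 0 with the score, 0 to 1 with each mouse left out, and 2 at any fold change. Over all genes 233 were called higher and 304 lower by edgeR, 144 and 225 by DESeq2, 126 and 155 by limma on log2(FPKM + 1), and 144 and 167 on log2(FPKM + 0.1).

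Same-numbered mice had correlations of their deviations of 0.0782, 0.118 and 0.237, and control mouse 1 correlated best with Pcp2-cre mouse 2 (0.132), so the numbers were not taken as pairs. With the replicate block the log2 fold changes of Tnc and Hapln4 were -1.24 and -0.51, 2 of the 8 genes were called lower, and 229 and 319 genes were called in all. Dropping control mice 1 and 2 leaves 1 control, which is assumed to vary like the Pcp2-cre mice. Acan had 7 to 20 counts per library and could not be tested with at least 10 counts in every library.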
